A study of Mus musculus with 5 samples.

Results

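The lysosome is the acidic compartment in which macrophages break down what they engulf and what they recycle from their own cells. The set described here holds 40 mouse genes for its enzymes, membrane proteins, cofactors and regulators. They were chosen by name from the known biology of the organelle, with earlier results of these data known. Each was measured as the sum of the FPKM of all its transcripts. FPKM counts fragments per kilobase of transcript, relative to the depth of the library. It is a level per length, so levels of different genes can be set side by side. The 40 genes are part of 49246 genes with a summed value in every library, and all 40 were among the 10770 genes tested.

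RNA had been sequenced from bone marrow-derived macrophages of wild-type C57BL/6 mice. Marrow cells were differentiated for 6 days with CSF1 or L929 cell supernatant (the labels do not say which was used here), after which 96% carried the macrophage surface proteins F4/80 and CD11b. All 5 libraries came from cells given 10 ng/ml interleukin 4 (IL-4) for 24 h. The treated group (3 libraries, replicates 3, 4 and 5) had first received 30 µM CBR-5884, an inhibitor of PHGDH, the enzyme that commits glucose carbon to serine synthesis. The control group (2 libraries, replicates 3 and 5) had received solvent before the same IL-4. No group here lacked IL-4, so the comparison is of the inhibitor within IL-4-treated cells. Whether the replicates were separate animals or cultures is not in the labels. The p-values therefore reflect only how these libraries vary, which may be technical.

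Lysosomal hydrolases are made as precursors, sorted to the organelle and activated there at low pH. Cathepsins cut proteins, glycosidases and sulfatases trim sugar chains, and lipases and ceramidases split lipids, some with the help of small activator proteins. Glycosylated membrane proteins such as Lamp1 and Lamp2 line the limiting membrane, and a proton pump keeps the lumen acidic. The transcription factors Tfeb and Tfe3 bind an E-box-like motif, often called the CLEAR element, near the starts of many of these genes.

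The promoter stretches of 5 members are shown because they carry the core of that element. RefSeq promoter windows (GRCm38.p6, 250 bases before to 50 after the annotated start) matched 35 of the 40 members. The 7 letters TCACGTG, searched on both strands, were found in the windows of 9 of the 35 (25.7%), against 4.29% of the windows of 27025 genes. The stretches below lie before the start of the gene in the GENCODE annotation and are written 5′ to 3′ on the strand of the gene. Capitals mark TCACGTG or its reverse complement CACGTGA, with overlapping matches merged into 1 run.

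Lamp1, chr8:13159079-13159160, plus strand: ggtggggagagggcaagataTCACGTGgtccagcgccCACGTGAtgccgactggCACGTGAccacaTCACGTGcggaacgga

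Gla, chrX:134601173-134601253, minus strand: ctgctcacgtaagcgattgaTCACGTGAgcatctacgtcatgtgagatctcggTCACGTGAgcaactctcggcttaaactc

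Glb1, chr9:114401009-114401055, plus strand: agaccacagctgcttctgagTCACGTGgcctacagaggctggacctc

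Gaa, chr11:119267802-119267848, plus strand: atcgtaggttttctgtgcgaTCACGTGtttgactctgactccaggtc

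Ctsd, chr7:142388046-142388077, minus strand: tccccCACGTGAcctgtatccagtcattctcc

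Lamp1 had 4 such sites between 62 and 10 bases before its start, and Gla had 2 sites. A second Ctsd site, a pair in Ctsa and in Mcoln1, and single sites in Lgmn and Naglu complete the 9. The 8-letter palindrome TCACGTGA was in 4 of the 35 windows (11.4%, against 1.12% of all windows), those of Ctsa, Ctsd, Gla and Mcoln1. The longer palindrome, with a G before and a C after these 8 letters, was in 0 of the 35 (0.0%, against 0.37% of all windows). It is so rare over all genes that 35 windows are too few to show a difference. The shorter CACGTG, contained in all of these, was in 10 of the 35 (28.6%, against 8.09%). A match is a description of the letters in a window and not a measured binding site.

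The lysosomal genes were among the most abundant transcripts of these macrophages. Of the 40, 26 had a mean of at least 100 FPKM over the 5 libraries, a level reached by 746 of all genes tested (6.9%), and 8 had a mean of at least 1000 FPKM. In the ranking of all genes tested by mean FPKM, 13 members stood among the first 100 and 27 among the first 1000. Psap, the precursor of the saposins that present sphingolipids to their hydrolases, had rank 3 of all genes at a mean level of 10481 FPKM. Ctsd, an aspartyl protease, had rank 8 at a mean of 4286 FPKM, and Ctsb, a cysteine protease, had a mean of 2460 FPKM. The membrane proteins Cd63, Cd68 and Lamp1, the acid lipase Lipa and the cysteine carboxypeptidase Ctsz made up the rest of the 8. At the other end, the sphingomyelinase Smpd1 (mean level 12.6 FPKM) and the sulfatase Arsb (6.93 FPKM) were the only members with a mean under 20 FPKM.

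**Figure D1:**
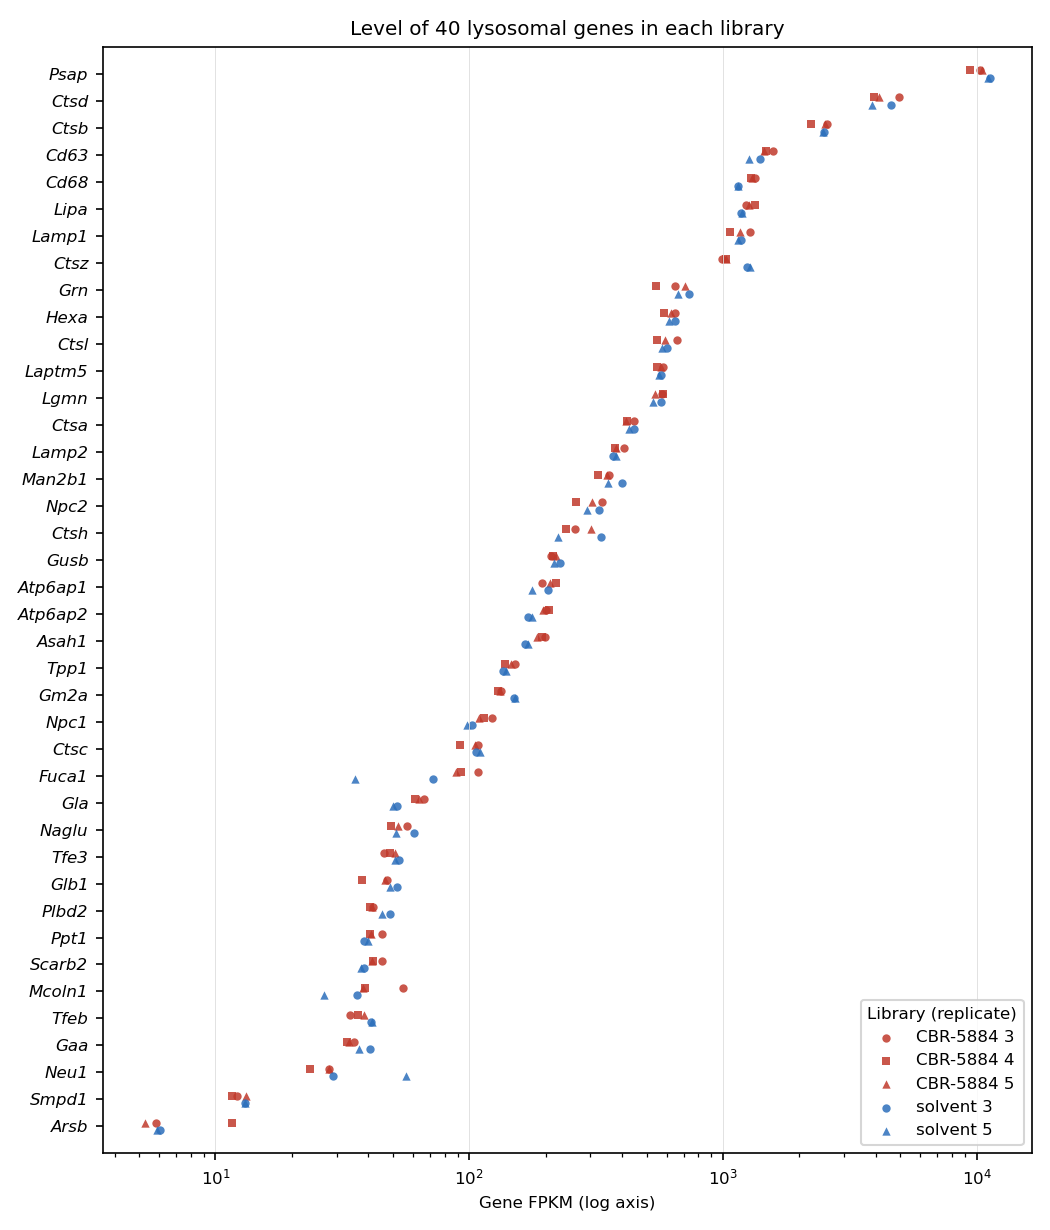
Gene FPKM on a log axis for each of the 40 genes in each library, ordered by mean, with red for the 3 CBR-5884 and blue for the 2 solvent libraries and the marker shape for the replicate number. Most genes show the 5 points close together, against a range of means from 6.93 FPKM (Arsb) to 10481 FPKM (Psap).

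Levels of single members differed little between libraries compared with the range between members. The highest library was less than 1.5 times the lowest in 36 of the 40. The other 4 were Mcoln1, Neu1, Fuca1 and Arsb. Of the summed FPKM of all genes tested, the 40 genes made up 6.49%, 5.85% and 6.24% in the CBR-5884 libraries (replicates 3, 4 and 5). In the solvent libraries (replicates 3 and 5) they made up 6.36% and 6.00%. The shares of the groups overlapped. In these bulk samples, fewer cells of a type and less RNA per cell cannot be told apart.

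No member passed the test between CBR-5884 and solvent. The test was limma on log2(FPKM + 1) over all 10770 genes, with Benjamini-Hochberg adjustment and a call at an adjusted p below 0.05. It called 0 of the 40 members in either direction, against 5 genes higher (0.0464% of those tested) and 19 lower (0.176%) over all genes. The smallest adjusted p of a member was 0.101, for Ctsz. Log2 fold changes (CBR-5884 against solvent) ran from -0.59 to 0.92, with 20 members on each side of 0 and a median of -0.01, beside -0.03 over all genes tested. A log2 fold change under 0.2 in size was seen in 32 of the 40 (80.0%), against 65.3% of all genes.

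The intervals state how large a difference these libraries leave room for. The 95% interval of the log2 fold change spanned 0 in 27 members, lay within 0.5 of 0 on either side in 33 and within 1 in 36. At an unadjusted p below 0.05, 7 members had higher values with CBR-5884 (17.5%, against 7.24% of all genes) and 4 had lower values (10.0%, against 12.4%). The 7 were Cd68, Npc1, Scarb2, Gla, Fuca1, Asah1 and Atp6ap2, and the 4 were Ctsz, Gaa, Plbd2 and Gm2a. All 3 CBR-5884 libraries lay above both solvent libraries in 11 members (27.5%, against 16.6% of all genes) and below both in 8 (20.0%, against 24.9%). Among the 746 genes with a mean of at least 100 FPKM, these shares were 19.6% above and 34.5% below. At an unadjusted limma p below 0.05, 12.7% of the 746 were higher and 22.1% lower. Abundant genes as a class thus split by group, and reached small p-values, more often than all genes do.

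The split of small p-values by direction depended on how libraries were scaled. Over all genes, an unadjusted p below 0.05 was found for 780 higher and 1334 lower genes (36.9% higher) with the FPKM as deposited. It was 1135 and 949 (54.5%) on a TPM scale, 1034 and 1060 (49.4%) with median ratios and 1163 and 945 (55.2%) with quantile normalization. The TPM scale here divides each library by its summed gene FPKM. Transcripts left without a gene are not in that sum, so it differs from a TPM over all transcripts. For the members, the counts were 9 higher and 2 lower on the TPM scale and with median ratios, and 8 and 2 with quantile normalization. The count of 7 higher members was 4 without CBR-5884 replicate 4 and 4 without solvent replicate 5, and the count of 4 lower members was 2 without CBR-5884 replicate 4.

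**Figure D2:**
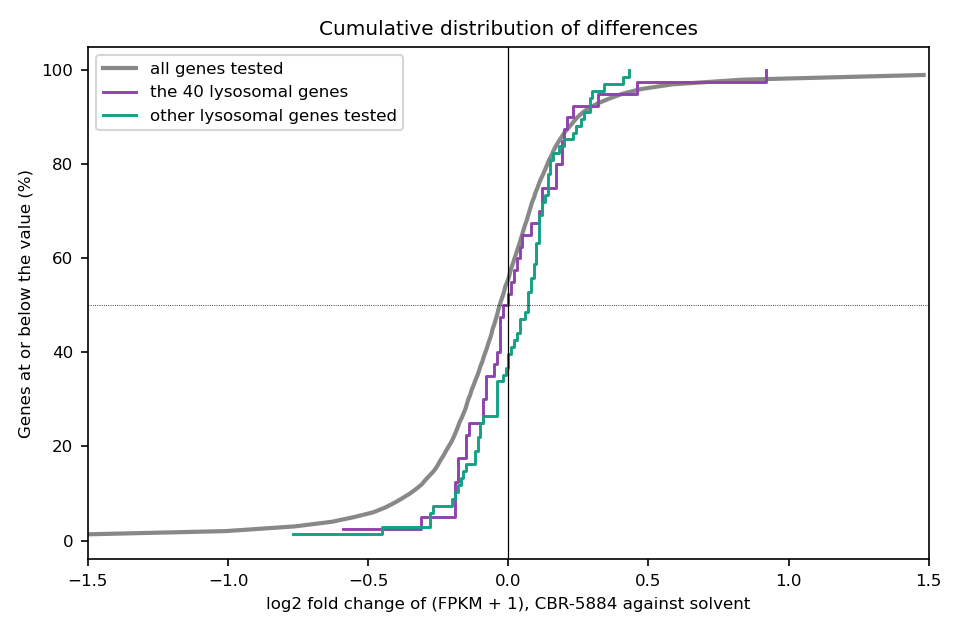
Cumulative share of genes (y axis, %) at or below each log2 fold change, CBR-5884 against solvent (x axis, shown from -1.5 to 1.5), for all 10770 genes tested, the 40 lysosomal genes and the 68 other lysosomal genes tested. The curve of the 40 genes crosses 50% at about the same place as that of all genes (medians -0.01 and -0.03) and that of the other lysosomal genes further right (median 0.07).

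All 8 lysosomal membrane proteins had a log2 fold change above 0 (median 0.17), down to 0.00 for Lamp1. Over all genes tested, 4772 of 10770 were above 0. Of 15 other lysosomal membrane proteins and transporters tested, 10 were above 0 (median 0.04). The 8 members stayed above 0 on the TPM scale and with median ratios, but these settings could not have turned the sign. Each multiplies all genes of a library by the same factor. Both raised the median over all genes, from -0.031 to 0.008 and -0.003. With quantile normalization, where that median was 0.013, the 8 members also kept their sign. The sign did not hold for Lamp1 (-0.06) and Laptm5 (-0.01) without CBR-5884 replicate 3. Nor did it hold for Lamp1 (-0.02) and Laptm5 (-0.01) without solvent replicate 5. In 5 of the 8 members (62.5%) every CBR-5884 library lay above both solvent libraries. This share was 16.6% over all genes and 33.3% over the 15 other membrane proteins and transporters. Of the 8 members, 0 passed the adjusted test. Cd68 (chromosome 11, 69664213 to 69666153, GRCm38), a heavily glycosylated protein of macrophage late endosomes and a common macrophage marker, measured 1334, 1292 and 1307 FPKM with CBR-5884 and 1148 and 1149.7 FPKM with solvent. Every CBR-5884 library lay above both solvent libraries. The log2 fold change of Cd68 was 0.19 (SE 0.04, limma adjusted p = 0.132).

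Npc1, which exports cholesterol from the lysosome, measured 123, 114 and 109 FPKM with CBR-5884 and 103 and 97.7 FPKM with solvent (log2 fold change 0.20 with SE 0.07, adjusted p = 0.224 by limma). Scarb2, the receptor that carries glucocerebrosidase to the lysosome, measured 45.5, 41.7 and 41.3 FPKM against 38.4 and 37.3 FPKM (log2 fold change 0.17 with SE 0.06, adjusted p = 0.243 by limma). Both genes had their highest value in CBR-5884 replicate 3 and no overlap between groups. The tetraspanin Cd63, the most abundant of the class, measured 1577, 1480 and 1447 FPKM against 1396 and 1266 FPKM. Its groups were separate too, with solvent replicate 5 lowest (log2 fold change 0.17 with SE 0.07, adjusted p = 0.26 by limma).

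Lamp1, Lamp2 and the macrophage and lymphoid protein Laptm5 showed close to no difference, with log2 fold changes of 0.00, 0.05 and 0.01. Their 95% intervals ran from -0.23 to 0.24, from -0.10 to 0.19 and from -0.11 to 0.12. Mcoln1, the calcium channel of the lysosomal membrane, measured 54.9, 38.7 and 38.0 FPKM with CBR-5884 and 36.1 and 26.8 FPKM with solvent. It is described after its values were seen, because its estimate was the largest of the class (log2 fold change 0.46, 95% interval -0.13 to 1.05; 0.29 without CBR-5884 replicate 3 and 0.25 without solvent replicate 5). CBR-5884 replicate 3 and solvent replicate 5 stood apart from the middle 3 libraries, which lay within 36.1 to 38.7 FPKM. Transcripts assembled from the reads held 35.3% of the Mcoln1 level on average. The reference transcript alone had another pattern, at 31.8, 30.2 and 21.6 FPKM with CBR-5884 and 20.8 and 19.5 FPKM with solvent (log2 fold change 0.43).

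The cathepsins and other lysosomal proteases were close to level between groups, except for Ctsz. Of these 9 genes, 4 had an estimate above 0 and 5 below, with a median of -0.03, and 0 passed the adjusted test. Ctsz (chromosome 2, 174427493 to 174439039, GRCm38), which removes single residues from the carboxyl end of proteins, measured 989, 1029.8 and 1029.9 FPKM with CBR-5884 and 1241 and 1273 FPKM with solvent. The groups were well separated, with all CBR-5884 values below both solvent values (log2 fold change -0.31 with SE 0.04, 95% interval -0.41 to -0.20, adjusted p = 0.101 by limma). The sign turned, to 0.28, when only reference transcripts were summed.

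Tpp1, a tripeptidyl peptidase, measured 151, 139 and 146 FPKM with CBR-5884 and 136 and 139 FPKM with solvent (log2 fold change 0.08 with SE 0.05, adjusted p = 0.483 by limma). Ctsc, which activates serine proteases of granules, measured 108, 91.8 and 105 FPKM against 106 and 111 FPKM (log2 fold change -0.09 with SE 0.09, adjusted p = 0.603 by limma). Lgmn, the asparaginyl endopeptidase that processes cathepsins, measured 576, 578 and 541 FPKM against 572 and 529 FPKM (log2 fold change 0.04 with SE 0.06, adjusted p = 0.746 by limma). In all 3 the groups overlapped.

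Ctsd, the most abundant protease among the members, measured 4941, 3928 and 4108 FPKM with CBR-5884 and 4598 and 3853 FPKM with solvent (log2 fold change 0.03 with SE 0.14, adjusted p = 0.908 by limma). Replicate 3 of each group was the higher one, and the spread within each group was wider than the difference between the groups. Ctsa, Ctsb, Ctsh and Ctsl had log2 fold changes of -0.03, -0.03, -0.03 and 0.02. The intervals of Ctsa (-0.17 to 0.11), Ctsb (-0.24 to 0.17) and Ctsl (-0.21 to 0.26) were narrower than that of Ctsh (-0.57 to 0.51), whose solvent values of 332 and 224 FPKM lay on either side of all 3 CBR-5884 values.

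The glycosidases and the sulfatase had the widest range of estimates. Of the 10, 3 had an estimate above 0 and 7 below (median -0.06), and 0 passed the adjusted test. Gla (chromosome X, 134588149 to 134601125, GRCm38), the alpha-galactosidase that removes terminal galactose from glycolipids, measured 66.5, 61.1 and 63.2 FPKM with CBR-5884 and 51.7 and 50.0 FPKM with solvent. Every CBR-5884 library was above both solvent libraries (log2 fold change 0.32 with SE 0.06, 95% interval 0.17 to 0.46, adjusted p = 0.128 by limma). The promoter of Gla holds the pair of TCACGTGA palindromes shown above. The 9 members with a TCACGTG site had log2 fold changes on both sides of 0, from -0.19 (Glb1) to 0.46 (Mcoln1).

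Gaa, the alpha-glucosidase that breaks down glycogen, measured 35.1, 33.0 and 33.7 FPKM with CBR-5884 and 40.5 and 36.7 FPKM with solvent. All CBR-5884 values were below both solvent values (log2 fold change -0.18 with SE 0.06, adjusted p = 0.244 by limma). Hexa, which removes terminal hexosamines and was the most abundant of the class, measured 647, 587 and 626 FPKM against 646 and 611 FPKM. Its groups overlapped (log2 fold change -0.02 with SE 0.06, adjusted p = 0.873 by limma). Gusb, Glb1, Naglu and Man2b1, which act on glucuronides, galactosides, heparan sulfate and mannosides, had log2 fold changes of -0.05, -0.19, -0.08 and -0.14, each with an interval that spanned 0.

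Fuca1, the fucosidase (chromosome 4, 135920735 to 135940311, GRCm38), measured 108, 92.8 and 88.7 FPKM with CBR-5884 and 71.7 and 35.3 FPKM with solvent. The groups did not overlap, but the 2 solvent values differed more from each other than the higher one did from the CBR-5884 values nearest to it. This gave the largest estimate among the 40 with a wide interval (log2 fold change 0.92 with SE 0.32, 95% interval 0.07 to 1.77, adjusted p = 0.235 by limma). The estimate was 1.42 without solvent replicate 3 and 0.42 without solvent replicate 5, and the sign turned, to -0.59, with reference transcripts alone. Neu1, the sialidase, measured 28.0, 23.6 and 28.1 FPKM with CBR-5884 and 28.9 and 56.5 FPKM with solvent, so that its estimate rests on solvent replicate 5 (log2 fold change -0.59 with SE 0.30, adjusted p = 0.358 by limma). It was -0.12 without that library, -1.06 without solvent replicate 3 and -0.06 with reference transcripts alone. Arsb, which removes sulfate from dermatan and chondroitin chains, stood at 11.6 FPKM in CBR-5884 replicate 4 and between 5.29 and 6.03 FPKM in the other 4 libraries.

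The 5 lipid and thioester hydrolases had 3 estimates above 0 and 2 below, with a median of 0.11, and 0 passed the adjusted test. Asah1 (chromosome 8, 41340197 to 41374773, GRCm38), the acid ceramidase, measured 199, 193 and 186 FPKM with CBR-5884 and 166 and 170.4 FPKM with solvent. Its groups were separate (log2 fold change 0.19 with SE 0.05, 95% interval 0.06 to 0.32, adjusted p = 0.167 by limma). Plbd2, a phospholipase B-like protein, was separate in the other direction at 41.7, 40.5 and 41.3 FPKM against 48.9 and 45.1 FPKM (log2 fold change -0.19 with SE 0.05, adjusted p = 0.186 by limma).

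Lipa, the acid lipase that frees cholesterol and fatty acids from lipoproteins and a source of fatty acids in IL-4-treated macrophages, measured 1235, 1335 and 1271 FPKM with CBR-5884. It measured 1174 and 1185 FPKM with solvent, below all 3 (log2 fold change 0.12 with SE 0.05, adjusted p = 0.285 by limma). Ppt1, the thioesterase that strips palmitate from proteins, measured 45.4, 40.7 and 41.1 FPKM against 38.4 and 40.1 FPKM (log2 fold change 0.11 with SE 0.07, adjusted p = 0.434 by limma). The lowest CBR-5884 value of Ppt1 was only just above the highest solvent value. Smpd1, which turns sphingomyelin into ceramide, lay within 11.6 to 13.2 FPKM in all 5 libraries, with overlapping groups (log2 fold change -0.08).

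The activator and transfer proteins all had estimates below 0 (4 of 4, median -0.15), and 0 passed the adjusted test. On the TPM scale and with quantile normalization Npc2 was at 0.00 on the other side of 0, so the shared sign did not hold for it. Gm2a (chromosome 11, 55098115 to 55113029, GRCm38), the activator that lifts GM2 ganglioside out of the membrane for its hydrolysis, measured 133, 129.7 and 132 FPKM with CBR-5884 and 149.8 and 151 FPKM with solvent. The values were tight within each group, and those with CBR-5884 were below both with solvent (log2 fold change -0.19 with SE 0.04, 95% interval -0.29 to -0.09, adjusted p = 0.133 by limma).

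Psap measured 10274, 9388 and 10454 FPKM with CBR-5884 and 11256 and 11033 FPKM with solvent. All 3 treated values were below both solvent values, with replicate 4 lowest (log2 fold change -0.15 with SE 0.06, adjusted p = 0.272 by limma). Grn, the precursor of the granulins, measured 649, 544 and 709 FPKM against 734 and 667 FPKM (log2 fold change -0.15 with SE 0.13, adjusted p = 0.565 by limma). Npc2, which hands cholesterol to Npc1, measured 335, 263 and 304 FPKM against 325 and 292 FPKM (log2 fold change -0.04 with SE 0.12, adjusted p = 0.865 by limma). The groups of Grn and of Npc2 overlapped, and CBR-5884 replicate 4 was the lowest library for both.

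Of the accessory proteins of the proton pump, Atp6ap2 (chromosome X, 12587801 to 12617049, GRCm38), also known as the prorenin receptor, measured 202, 205 and 196 FPKM with CBR-5884 and 169.9 and 177 FPKM with solvent. Its groups did not overlap (log2 fold change 0.21 with SE 0.05, 95% interval 0.09 to 0.33, adjusted p = 0.142 by limma). Atp6ap1 measured 193, 219 and 208 FPKM against 204 and 177 FPKM, with overlap (log2 fold change 0.12 with SE 0.09, adjusted p = 0.522 by limma).

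The transcription factors of the pathway had estimates below 0. Tfeb measured 33.8, 36.3 and 38.6 FPKM with CBR-5884 and 40.8 and 41.5 FPKM with solvent, a small separation (log2 fold change -0.18 with SE 0.07, adjusted p = 0.264 by limma). Tfe3 measured 46.3, 48.9 and 51.1 FPKM against 53.1 and 50.8 FPKM, with overlap (log2 fold change -0.09 with SE 0.06, adjusted p = 0.465 by limma). These are RNA levels; the activity of both factors is known to be set largely by where the protein sits in the cell, which was not measured here.

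How Cufflinks divided a gene into transcripts differed from library to library, and for 14 members this bears on the level. In the other 26 members every FPKM came from reference transcripts. In the 14, part of the gene level was reported under transcripts that the program had assembled from the reads of that library. The genes named for this were chosen after their values were seen. Lamp1 showed the pattern plainly. Its reference transcripts measured 386, 1062 and 339 FPKM with CBR-5884 and 303 and 318 FPKM with solvent, a ratio of 3.5 between highest and lowest. The sum over all its transcripts was 1273, 1062, 1166, 1178 and 1141 FPKM in the same order, a ratio of 1.2. In CBR-5884 replicate 4 no assembled Lamp1 transcript was listed.

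**Figure D3:**
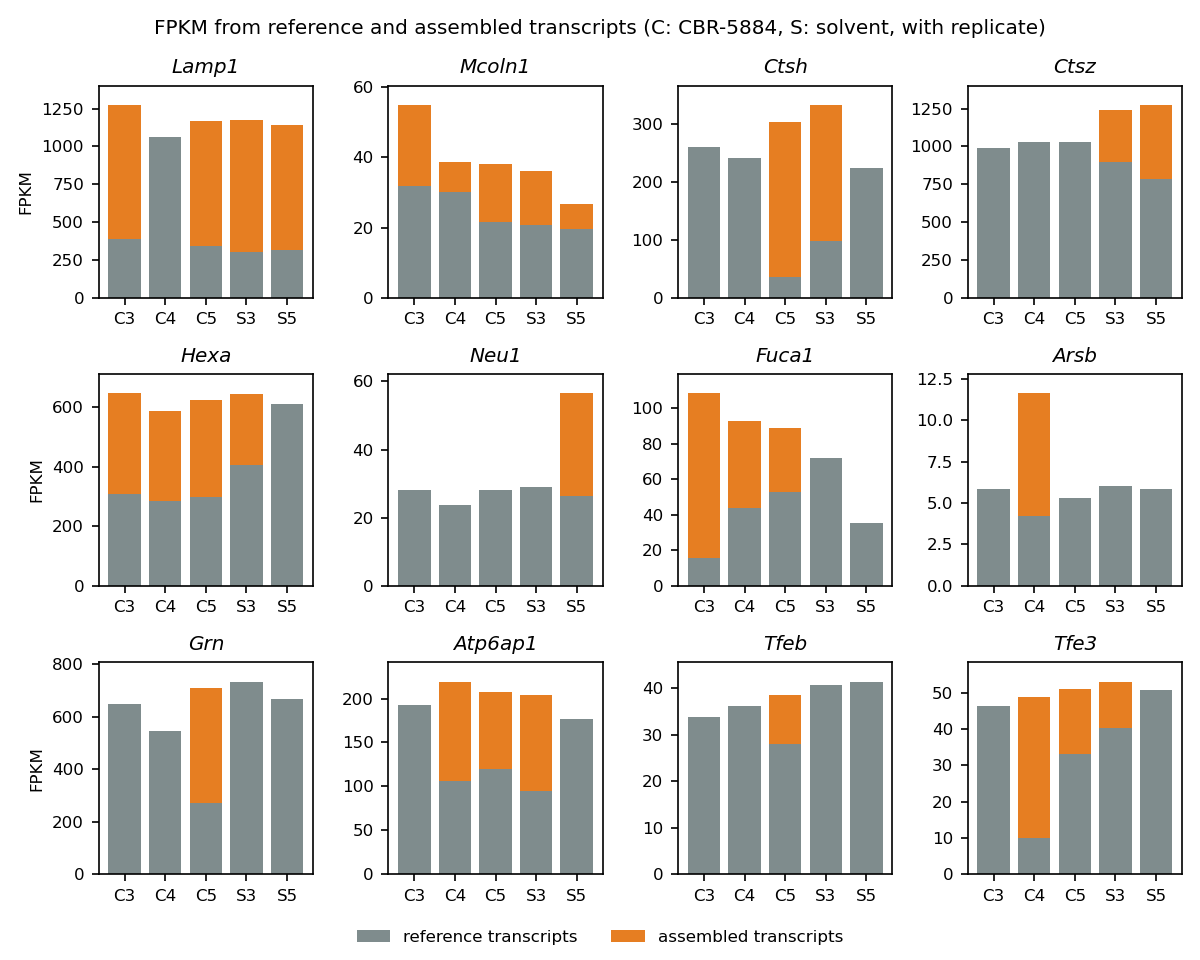
FPKM of 12 members in each library (C: CBR-5884, S: solvent, with the replicate number), split into reference transcripts (grey) and transcripts assembled from the reads (orange). In Lamp1, Hexa and Tfe3 the full bars are level while the grey parts are not, whereas in Ctsz and Fuca1 every library of 1 group has an orange part and no library of the other group does.

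The same held for Ctsh, Hexa, Grn, Atp6ap1, Tfeb and Tfe3, whose sums varied less between libraries than their reference transcripts. For Tfe3 the ratio of highest to lowest library was 5.16 over reference transcripts and 1.15 over all, and for Ctsh it was 7.35 and 1.48. With reference transcripts alone the log2 fold change was 0.74 for Lamp1, -0.74 for Hexa, -0.61 for Grn and -0.83 for Tfe3, with limma adjusted p from 0.254 to 0.62, in place of 0.00, -0.02, -0.15 and -0.09 over all transcripts. For Neu1 and Arsb the reverse was seen: the single high library was high through its assembled transcripts, and the reference transcripts were level, with ratios of 1.22 and 1.44.

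In Ctsz and Fuca1 assembled transcripts were listed in every library of 1 group and in none of the other. For Ctsz they held 27.8% and 38.3% of the gene FPKM in solvent replicates 3 and 5 and were listed in no CBR-5884 library. Its single reference transcript measured 989, 1029.8 and 1029.9 FPKM with CBR-5884 and 896 and 785 FPKM with solvent, which is the order opposite to that of the sums. For Fuca1 assembled transcripts held 85.7%, 53.1% and 40.4% in the CBR-5884 libraries and were listed in no solvent library. The direction of both genes therefore depended on whether these transcripts were counted.

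In 6 members 2 or more reference transcripts had at least 10% of the level each. Shares varied little between libraries in Ctsd and Lamp2 and more in Gaa, Lipa, Lgmn and Tfe3. Ctsd was divided 45.0% to 55.0% between Ctsd-201 and Ctsd-202 on average, and Ctsd-201 held from 44.4% to 45.4% in the 5 libraries. Lamp2-201 held from 59.4% to 64.2% of Lamp2 and Lamp2-202 the rest. Gaa-203 held 18.2%, 16.5% and 19.9% of Gaa with CBR-5884 and 16.9% and 30.3% with solvent, so that solvent replicate 5 stood apart.

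Lipa-201 held 57.1%, 52.4% and 45.0% of Lipa with CBR-5884 and 47.6% and 45.6% with solvent, and Lipa-202 the rest. Lgmn-202 held 70.2%, 74.6% and 78.6% of Lgmn against 59.4% and 78.9%, where assembled transcripts took 20.4% in solvent replicate 3. For Lipa and for Lgmn the shares overlapped between groups. Tfe3-204 ranged from 0% in CBR-5884 replicate 4, where assembled transcripts held 79.8%, to 81.7% in replicate 3. No test was made on shares of transcripts, whose estimates from single reads of 75 bp depend on the few bases in which transcripts differ.

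Some members share bases with another gene. The exons of Ctsa overlap those of Pltp (mean level 378 FPKM) on the opposite strand by 495 nt, and those of Ppt1 overlap Cap1 (187 FPKM) by 129 nt. Arsb overlaps Gm26527 by 1948 nt and Hexa overlaps Tmem202 by 255 nt on the opposite strand, while Glb1 overlaps Tmppe by 165 nt and Ctsd overlaps Gm49369, listed at 0, by 808 nt on the same strand. The strand setting of the counting is not given in the sources used here, so reads in these stretches may be divided between the partners.

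The highest and lowest values of the members were not spread evenly over libraries. CBR-5884 replicate 3 was the highest library in 19 of the 40 members, against 16.9% of all genes tested. CBR-5884 replicate 4 was the lowest in 17 of the 40, against 18.9% of all genes. Both belong to the same group, and they differed in opposite directions from the mean of all libraries, with median log2 deviations over the members of 0.054 and -0.053. CBR-5884 replicate 5 was highest in 1 member and lowest in 2.

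**Figure D4:**
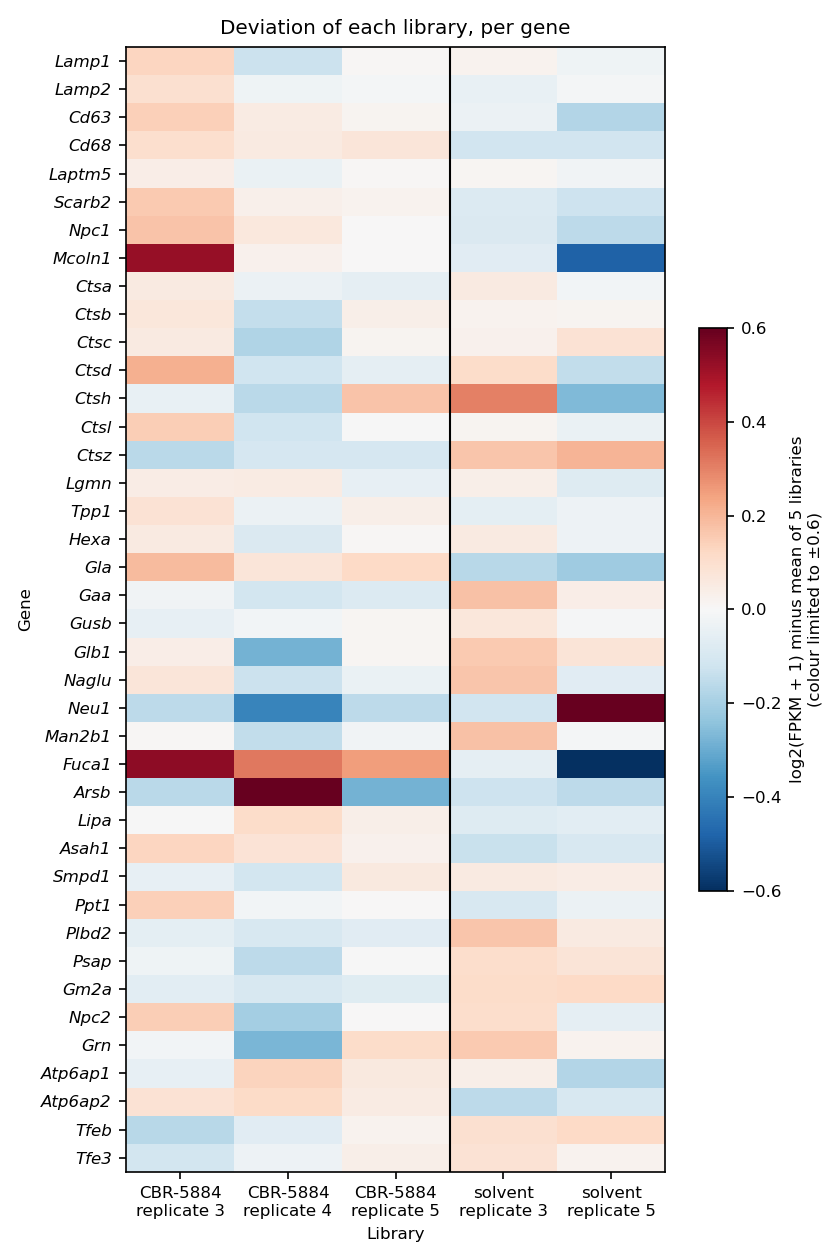
Deviation of log2(FPKM + 1) from the mean of the 5 libraries for each of the 40 genes (rows) in each library (columns), with red above and blue below the mean and colour limited to 0.6 on either side. CBR-5884 replicate 3 is mostly red and replicate 4 mostly blue within the same group (highest in 19 and lowest in 17 members).

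Other lysosomal genes, given for comparison, did not pass the test either. Of 75 listed, 68 were tested. Arsg, Stfa1, Stfa2 and Stfa3 were listed at 0, Ctse and Abcb9 had a mean under 1 FPKM, and Galns was not analysed here. The 68 had 42 genes with an estimate above 0 and 26 below, with a median of 0.07. None passed the adjusted test in limma, against 0.0464% higher and 0.176% lower of all genes tested. At an unadjusted p below 0.05 there were 8 higher (11.8%, against 7.24% of all genes) and 4 lower (5.9%, against 12.4%). Groups did not overlap in 30 of the 68, with CBR-5884 above in 19 (27.9%, against 16.6% of all genes) and below in 11 (16.2%, against 24.9%). By role, 7 of 8 genes for enzyme sorting and activation, such as the mannose 6-phosphate receptors, had an estimate above 0 (median 0.10). The 3 tested cathepsin inhibitors had a median of 0.00. Their promoter windows held TCACGTG in 16 of 59 (27.1%), beside 25.7% for the members.

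The smallest p-value among them was that of Lamtor1, a subunit of the Ragulator complex that anchors mTORC1 signalling to the lysosome. It measured 121, 125 and 127 FPKM with CBR-5884 and 148 and 154 FPKM with solvent, without overlap (log2 fold change -0.28 with SE 0.05, adjusted p = 0.123 by limma).

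The cysteine protease Ctso measured 27.3, 25.3 and 24.3 FPKM with CBR-5884 and 20.95 and 21.24 FPKM with solvent (log2 fold change 0.27 with SE 0.06, adjusted p = 0.159 by limma). Ctsk, a collagen-degrading relative, measured 19.6, 21.5 and 17.0 FPKM against 15.4 and 12.8 FPKM (log2 fold change 0.43 with SE 0.13, adjusted p = 0.20 by limma). The values with CBR-5884 were above both solvent values for these proteases, and also for Fnip1 and Smpdl3a. Fnip1, a partner of folliculin in the control of Tfeb and Tfe3, measured 27.1, 24.5 and 24.8 FPKM against 20.3 and 21.8 FPKM (log2 fold change 0.26 with SE 0.07, adjusted p = 0.171 by limma), and its sign turned, to -0.44, with reference transcripts alone. Smpdl3a, a phosphodiesterase related to Smpd1, measured 178, 163 and 155 FPKM against 144 and 127 FPKM (log2 fold change 0.29 with SE 0.09, adjusted p = 0.208 by limma).

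In the other direction, the acid nuclease Dnase2a measured 103, 108 and 102 FPKM with CBR-5884 and 116 and 115 FPKM with solvent (log2 fold change -0.15 with SE 0.05, adjusted p = 0.208 by limma). Plbd1, a relative of Plbd2, measured 6.32, 9.34 and 10.2 FPKM against 13.1 and 17.3 FPKM (log2 fold change -0.77 with SE 0.23, adjusted p = 0.199 by limma). Neither showed overlap between groups, and the 5 values of Plbd1 were the more spread. Ctss, the protease of antigen processing, was named after its values were seen as the most abundant of this list, at a mean of 6171 FPKM (log2 fold change 0.11, limma adjusted p = 0.464).

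The libraries matched the labelled cell type. All 8 macrophage markers, Cd68 among them, reached 1 FPKM, with a summed level of 9743 to 13078 FPKM with CBR-5884 and 11011 to 13092 FPKM with solvent. Most of this sum was Lyz2, at 6964 to 10241 FPKM with CBR-5884 and 8456 and 10378 FPKM with solvent. Lists for other cells of marrow were low. B and T cell genes summed to at most 0.143 FPKM, the 4 erythroid genes, Cd3e, Cd3g and the neutrophil gene Ly6g were listed at 0, and 8 neutrophil genes summed to between 10.5 and 22.2 FPKM. The sums of several lists were lower with CBR-5884 without overlap, as were 24.9% of all genes tested. Single genes of these lists, such as Ly6c2, Plac8, Col1a2 and Dcn, had overlapping groups. The 5 monocyte genes summed to 50.7 to 80.7 against 125 to 142 FPKM, nearly all of it Fn1. The 7 stromal genes summed to 11.0 to 17.6 against 18.3 to 19.2 FPKM, most of it Col1a1 and Col1a2. The 6 dendritic cell genes summed to 0.872 to 1.47 against 1.72 to 2.74 FPKM, and only 1 of them reached 1 FPKM in any library. The monocyte chemokine receptor Ccr2 passed the test, at 3.45, 3.71 and 3.54 FPKM with CBR-5884 and 7.66 and 8.19 FPKM with solvent (log2 fold change -0.97 with SE 0.07, adjusted p = 0.0395 by limma). The part of these genes in the small differences of the lysosomal genes was not tested. Coverage divided by FPKM implies a depth of 30230000 to 30700000 fragments for the CBR-5884 libraries and of 28310000 to 28850000 fragments for the solvent libraries.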

How the data were processed

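RNA of 5 mouse macrophage libraries was sequenced as single reads of 75 bp from a directional kit, per the labels' protocols. The submitters' processing notes name Bowtie2, TopHat2 and Cufflinks and the builds mm10 and GRCm38. Not given in the sources used here are the strand setting, the annotation release and the tool versions. The deposited values are the authors' FPKM per transcript, estimated separately for every library as the files show. No scaling between libraries is recorded. A value of exactly 0, which can be a failed estimate, is described as listed at 0.

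GENCODE M21 (GRCm38) gave the gene of 99.5% of the reference transcripts. Assembled transcripts, if 200 nt or longer, went to the gene on their strand covering at least 50% of their exonic bases. Short or unassigned assembled transcripts were left out, as were reference transcripts without a gene in GENCODE M21. Together they held 64.0% to 70.3% of each library's summed FPKM, which was not split by source. Gene FPKM was the sum, and 95 of 49341 genes lacked a value in some library.

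A gene entered the test at a mean of 1 FPKM or more. The test was limma 3.58.1 in R 4.3.3 (lmFit, eBayes with a variance trend, two-sided, 3 residual degrees of freedom) on log2(FPKM + 1), adjusted over all genes by Benjamini-Hochberg and called below 0.05. Fold changes on this scale understate low genes. The script was tested on simulated data. Alternatives changed the pseudocount, filter, scaling, transcripts summed, variance trend and replicate block, and left out each library.

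The members and gene lists were chosen with earlier results of these data known. Full values are given, in each role, for up to 4 members with the smallest unadjusted p and for the most abundant, for the 8 other lysosomal genes with the smallest p, and for members with 2 or more reference transcripts of at least 10% each. Of the 8, 1 is not reported here. Galns was not analysed here. Coordinates are 1-based.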

Additional observations from a re-analysis of the deposited data

How the results depend on the processing

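Over 16 alternatives no member had an adjusted p below 0.0835, reached by Ctsz with quantile normalization, and 25 of the 40 members kept their sign in all of them. The count of all genes called was 24. It was 38 with no filter, 9 with a mean FPKM of at least 5, 39 with reference transcripts only, and 19 to 89 when 1 library was left out (89 without solvent replicate 3, 66 without solvent replicate 5, which assumes that the lone solvent library varies like the others). With 3 residual degrees of freedom and no fragment counts, precision is limited by the number of libraries.

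Whether same-numbered libraries shared more than the number, such as an animal or a culture, is not in the labels. Their deviations correlated at 0.088, from 2 shared numbers, which are too few to decide it. A replicate block leaves fewer residual degrees of freedom than the main fit. It also takes nothing from CBR-5884 replicate 4, the only library of its number. Its log2 fold changes are therefore those without that library and not a separate check of them. With the block 3 genes were called. The block gave 2 members lower and 7 other lysosomal genes lower at an unadjusted p below 0.05 (4 and 4 without it), and Ctsb 0.03, Ctsh 0.04, Hexa 0.02, Arsb -0.08 and Npc2 0.05 as log2 fold changes of turned sign.

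The 4 members lower at an unadjusted p below 0.05 were 2 on the TPM scale, 2 with median ratios, 2 with quantile normalization and 2 to 4 with 1 library left out, and the 7 higher were 4 to 5. Other lysosomal genes higher, 8 in all, were 13 on the TPM scale, 13 with quantile normalization and 3 to 6 with 1 library left out.

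Log2 fold changes turned sign on the TPM scale for Ctsa (0.01), Ctsb (0.01), Ctsh (0.01), Hexa (0.02) and Npc2 (0.00), with median ratios for Ctsa (0.00), Ctsh (0.00) and Hexa (0.01), and with quantile normalization for Ctsa (0.08), Ctsb (0.14), Hexa (0.02) and Npc2 (0.00). With reference transcripts only, and with the most abundant one only, Ctsz was at 0.28, Fuca1 at -0.59, Arsb at -0.19 and Fnip1 at -0.44, and the latter also gave Lipa -0.03. Leaving out 1 library gave ranges across 0 for Lamp1 (-0.06 to 0.07), Laptm5 (-0.01 to 0.03), Ctsd (-0.10 to 0.16), Ctsl (-0.05 to 0.09), Ctsb (-0.07 to 0.03), Ctsh (-0.31 to 0.25), Hexa (-0.06 to 0.02), Arsb (-0.08 to 0.42), Npc2 (-0.12 to 0.05), Ctsa (-0.07 to 0.01), Naglu (-0.20 to 0.04) and Lgmn (-0.02 to 0.09). The turns on the TPM scale and with median ratios come from a factor shared by all genes of a library. Those with other transcripts come from what was summed. For the rest the cause was not tested.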
